A study of Homo sapiens with 6 samples.

Results

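The small nucleolar RNA (snoRNA) host genes described here are GAS5, SNHG1, SNHG5, SNHG6, SNHG7, SNHG8, SNHG12, SNHG15, SNHG16 and ZFAS1, noncoding genes whose introns carry snoRNAs. They were taken by the gene symbols of the array annotation, with every probe of each gene. Of the 10 genes, 9 had a probe, with 14 probes in all, and SNHG16 was not analysed here because no probe carried its symbol. The 9 genes stand among 14534 genes with a kept probe, and their 13 kept probes among 29440. Probes stayed in the fit if at least 3 of the arrays read them above percentile 40. The genes were chosen by their difference between TIC10 and DMSO on these same arrays, together with their shared role, so those differences are given as a description, without a test.

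The cells were HCT116, an established human colorectal carcinoma line, in a derivative without p53 that both groups share. One group received the small molecule TIC10 at 10 µM and the other its solvent, DMSO at 0.05%, and RNA was taken at 48 h. Total RNA was measured on Illumina bead arrays, 3 per treatment, and 2 deposited tables of the 6 samples were read, one of bead intensities that had not been normalized and one of processed log values, the series matrix. The labels number the replicates but do not name separate cultures, and p-values therefore measure only the spread between these arrays. In such bulk RNA, fewer expressing cells and less RNA per cell cannot be told apart. Of 10 markers of colon epithelium on the array, 8 had a kept probe, among them EPCAM, CDH1, KRT8, KRT19 and CDX2, while CDX1 and VIL1 did not. Of 9 markers of other cell types, 5 had a kept probe.

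A snoRNA host gene is transcribed as one long RNA. Splicing releases the introns, from which snoRNAs are trimmed: box C/D snoRNAs guide ribose methylation and H/ACA snoRNAs guide pseudouridylation of ribosomal and spliceosomal RNA. The joined exons of many noncoding hosts begin with a terminal oligopyrimidine tract, a run of C and T at the transcription start shared with ribosomal protein genes, are bound by ribosomes and are removed by nonsense-mediated decay (NMD), so that the level of the spliced RNA depends on both transcription and translation-linked decay. GAS5 took its name from its accumulation in growth-arrested cells.

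Promoters of 8 of the 10 genes were in the RefSeq table (build GRCh38.p14), which gives 250 bases before and 50 after a gene's start. Shown are those of the analysed genes with the 3 highest and the 3 lowest differences between TIC10 and DMSO in the bead table. They are written 5′ to 3′ on the strand of the gene. The 3 lowest differences were near 0, which does not show that those genes were unchanged. Capitals mark the longest run of C and T that reaches into the 15 bases on either side of the start.
SNHG8: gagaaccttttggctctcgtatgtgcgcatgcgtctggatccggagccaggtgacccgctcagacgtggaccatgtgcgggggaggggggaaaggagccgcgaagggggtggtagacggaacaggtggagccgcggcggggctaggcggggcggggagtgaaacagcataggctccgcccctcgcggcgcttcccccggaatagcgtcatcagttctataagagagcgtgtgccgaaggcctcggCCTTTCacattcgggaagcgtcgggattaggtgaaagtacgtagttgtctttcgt
SNHG7: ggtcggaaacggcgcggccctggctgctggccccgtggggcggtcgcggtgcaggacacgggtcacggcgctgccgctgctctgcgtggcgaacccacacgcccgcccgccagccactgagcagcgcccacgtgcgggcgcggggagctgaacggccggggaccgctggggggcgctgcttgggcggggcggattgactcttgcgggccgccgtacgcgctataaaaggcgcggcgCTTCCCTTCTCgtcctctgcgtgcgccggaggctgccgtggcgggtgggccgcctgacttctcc
ZFAS1: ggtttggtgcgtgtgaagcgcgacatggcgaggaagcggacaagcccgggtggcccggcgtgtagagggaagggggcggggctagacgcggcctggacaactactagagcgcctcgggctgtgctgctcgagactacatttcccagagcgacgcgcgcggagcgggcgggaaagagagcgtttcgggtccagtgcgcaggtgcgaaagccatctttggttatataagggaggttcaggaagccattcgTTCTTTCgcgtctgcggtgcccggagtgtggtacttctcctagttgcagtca
SNHG1: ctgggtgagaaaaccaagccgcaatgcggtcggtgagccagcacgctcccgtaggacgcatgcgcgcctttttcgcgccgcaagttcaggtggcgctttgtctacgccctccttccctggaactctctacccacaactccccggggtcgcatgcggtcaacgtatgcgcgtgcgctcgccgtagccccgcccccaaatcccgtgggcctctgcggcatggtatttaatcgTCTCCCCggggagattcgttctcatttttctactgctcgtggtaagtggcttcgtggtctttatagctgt
GAS5: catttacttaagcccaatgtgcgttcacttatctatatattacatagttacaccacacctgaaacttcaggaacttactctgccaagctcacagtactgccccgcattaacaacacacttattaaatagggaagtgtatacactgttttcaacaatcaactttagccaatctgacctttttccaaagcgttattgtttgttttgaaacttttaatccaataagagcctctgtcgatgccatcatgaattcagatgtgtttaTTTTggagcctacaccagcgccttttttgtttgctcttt
SNHG12: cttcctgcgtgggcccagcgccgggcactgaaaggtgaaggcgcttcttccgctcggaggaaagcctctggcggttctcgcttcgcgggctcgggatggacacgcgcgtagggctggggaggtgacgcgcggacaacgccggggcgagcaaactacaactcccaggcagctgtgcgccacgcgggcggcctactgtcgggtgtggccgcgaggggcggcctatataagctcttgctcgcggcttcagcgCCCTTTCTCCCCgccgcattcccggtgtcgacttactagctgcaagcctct
These windows lie at chr4:118278512-118278811 on the plus strand (SNHG8), chr9:136728135-136728434 on the minus strand (SNHG7), chr20:49278392-49278691 on the plus strand (ZFAS1), chr11:62855836-62856135 on the minus strand (SNHG1), chr1:173868996-173869295 on the minus strand (GAS5) and chr1:28581824-28582123 on the minus strand (SNHG12).

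The marked run was 6 bases in SNHG8, 11 in SNHG7 and 7 in ZFAS1, against 7 in SNHG1, 4 in GAS5 and 12 in SNHG12. The lengths of the 3 genes with the highest differences thus lay inside the range of the 3 with the lowest. The runs did not all lie at the start. Counted from it, their first base was at -5 in SNHG8, -14 in SNHG7 and -2 in ZFAS1. It was at -20 in SNHG1, 12 in GAS5 and -1 in SNHG12. The lengths are therefore not a comparison of terminal oligopyrimidine tracts. Over all 35116 promoters of the table the median run was 5 bases, 38.8% had at least 6 and 26.7% at least 7. Of the 8 host promoters, 7 had at least 6 bases and 5 had at least 7. The whole letters TGATGNAA, the core of an element bound by CHOP and ATF4 in stress-responsive genes, were in 0 of the 8 windows on either strand and in 3.62% of all promoters. CACGTG, an E-box letter sequence that is its own reverse complement, was in 1 of the 8, that of SNHG7, and in 7.26% of all promoters. These are matches of letters in a window and say nothing of whether a factor binds.

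One array stood apart. DMSO replicate 3 had the highest summed intensity, 1.91e+07 against 1.16e+07 to 1.40e+07 on the other arrays, and correlated with the other DMSO arrays at 0.968 and 0.972, where the other pairs within a group correlated at 0.992 to 0.995. The host genes moved with it. After normalization, DMSO replicate 3 was above both other DMSO arrays in 8 of the 9 genes, by 0.36 (SNHG6) to 1.21 (SNHG15) on the log2 scale over their mean, where the median gene differed by 0.02. GAS5 was the exception at -0.11. Before normalization, the intensities of those 8 genes on DMSO replicate 3 were 2.09 to 3.92 times the mean of the other DMSO arrays, against 1.31 times for the median gene. Summed over the 9 genes, intensity was 9780, 10000 and 23485 on the DMSO arrays and 19512, 19934 and 22696 on the TIC10 arrays, so the unnormalized sums overlapped through DMSO replicate 3 alone. The members' results and the main results beside them are therefore given with and without that array, and its part in the results beyond those values was not tested.

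The 2 tables also did not track each other array by array. Within a group, the deviations of a bead column correlated best with the matrix column of its own number for 1 of the 6 arrays. No source used here says whether both tables come from the same scans. Over the kept probes the difference between TIC10 and DMSO correlated at 0.57 between the tables, and 86.4% of the probes called in the bead table had the same sign in the matrix.

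SNHG8, SNHG7, ZFAS1, SNHG5 and SNHG6 lay higher on every TIC10 array than on every DMSO array of the bead table. They were 1.49 to 3.38 times higher with TIC10. The limma fit over all kept probes put these 5 under an adjusted p of 0.05 as higher and 0 of the 9 as lower. The choice of the genes favoured this count, so it is a description of where they lie in the fit, not a test of them, and nothing is read from it. Over the whole array, 9.99% of genes passed as higher and 13.0% as lower, and 18.5% had all TIC10 arrays above all DMSO arrays and 23.1% all below. SNHG15 lay higher on average with overlapping groups, and SNHG12, GAS5 and SNHG1 had differences near 0. On the same descriptive footing, the count without DMSO replicate 3 was 7, SNHG12 and SNHG15 being added, beside 15.9% of all genes as higher and 18.7% as lower. In the matrix it was 4, SNHG5, SNHG7, SNHG8 and ZFAS1, beside 3.32% of all genes as higher and 2.68% as lower. There 5 of the 9 had all TIC10 columns above all DMSO columns and 1 all below, beside 11.6% and 12.1% of all genes. With the arrays scaled to one median in place of quantile normalization, it was 0, beside 2.02% of all genes as higher and 11.6% as lower, where the median gene itself was at -0.15 in place of -0.01. That scaling also moved the calls over all probes from 2549 higher and 2741 lower to 513 higher and 2445 lower. The differences themselves were smaller but remained under that scaling in the genes that had been higher: 1.34 for SNHG8, 1.15 for SNHG7, 1.08 for ZFAS1, 0.84 for SNHG5 and 0.21 for SNHG6. The median difference of the 9 genes, which is that of SNHG15, was 0.74 in the main fit and 0.28 under that scaling.

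**Figure D1:**
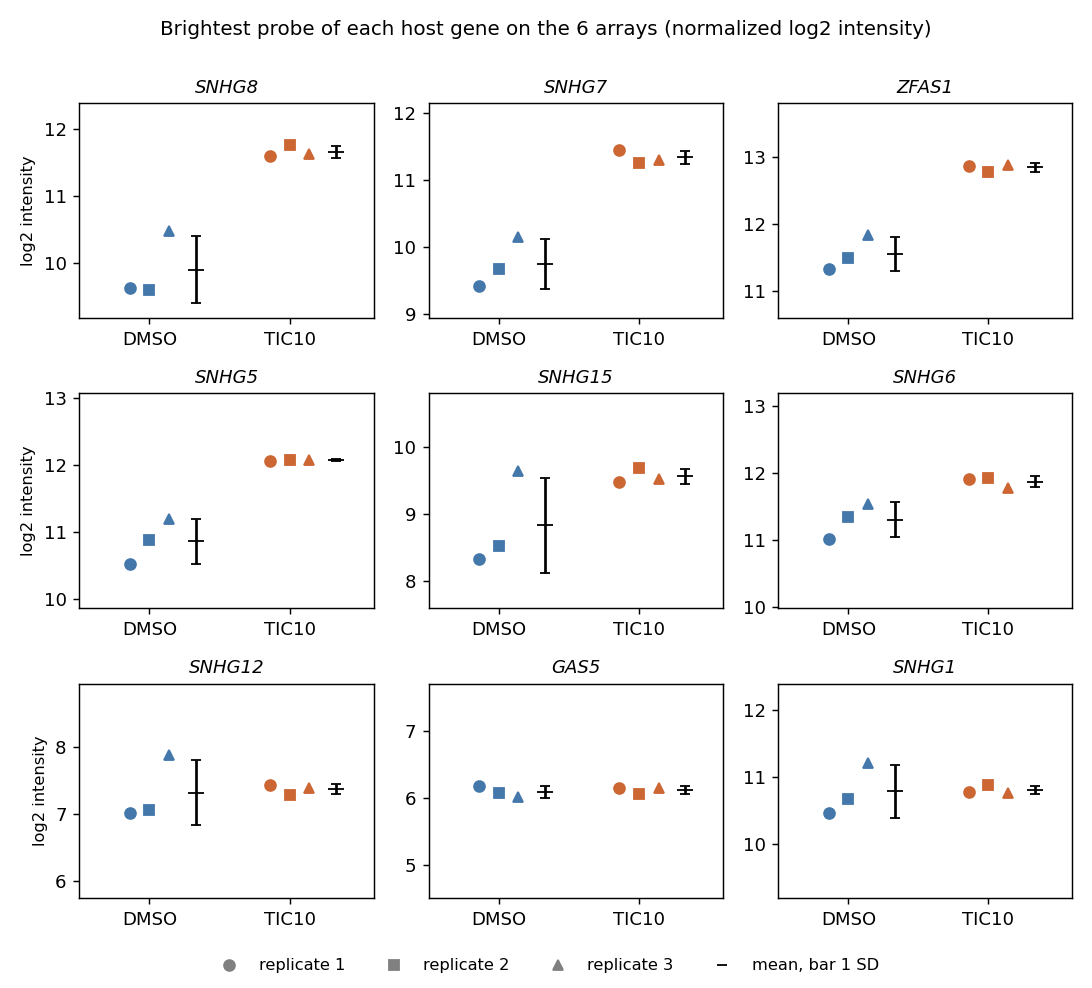
Normalized log2 intensity of the brightest kept probe of each host gene (vertical axes, each spanning the same number of log2 units) on the 3 DMSO (blue) and 3 TIC10 (orange) arrays, with symbols for replicates and the group mean with a bar of 1 SD to the right. The TIC10 arrays sit together, while DMSO replicate 3 (triangle) is above the other DMSO arrays in every gene but GAS5.

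The largest differences were those of a pair of H/ACA hosts, SNHG8 and SNHG7. SNHG8, which carries SNORA24, had intensities of 819, 694 and 2244 on the DMSO arrays and 2364, 2746 and 2899.6 on the TIC10 arrays. Normalized, these were 9.63, 9.60 and 10.47 against 11.59, 11.76 and 11.63 on the log2 scale, so DMSO replicate 3 was the closest to the TIC10 arrays but still below all of them. The difference was 1.76 ± 0.23 (limma SE), 3.38-fold, and 2.04 ± 0.08 without DMSO replicate 3, 4.12-fold. In the matrix, SNHG8 had centred log values of -0.98, -0.76 and -0.84 with DMSO and -0.06, 0.08 and 0.15 with TIC10. The matrix groups did not overlap either, with a smaller difference of 0.92 ± 0.12.

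SNHG7, whose introns carry SNORA17A and SNORA17B, had normalized log2 values of 9.43, 9.67 and 10.15 with DMSO and 11.45, 11.26 and 11.31 with TIC10. The lowest TIC10 array was above the highest DMSO array, and the difference was 1.59 ± 0.18 (3.01-fold) with all arrays and 1.79 ± 0.10 without DMSO replicate 3. The matrix gave 0.51 ± 0.13, again without overlap. Among the genes with several kept probes, SNHG7 was the one whose probes disagreed. Another probe, designed to a second transcript record of the gene, differed by 1.15 ± 0.20, and 1.37 ± 0.10 without DMSO replicate 3, with all TIC10 arrays above all DMSO arrays. The third probe was dim, at intensities of 58.5 to 85.0, differed by 0.08 ± 0.08 in the bead table with overlapping groups (0.12 ± 0.08 without DMSO replicate 3), and by -0.29 ± 0.12 in the matrix, where all TIC10 columns were below all DMSO columns.

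SNHG15, which carries one H/ACA snoRNA, had 8.33, 8.53 and 9.64 with DMSO and 9.48, 9.69 and 9.53 with TIC10. The groups overlapped only through DMSO replicate 3, which was above 2 of the TIC10 arrays. The difference was 0.74 ± 0.33 with all arrays and 1.14 ± 0.10 without that array. Its other probe had 0.74 ± 0.36 and, without DMSO replicate 3, 1.19 ± 0.11. In the matrix the differences were 0.21 ± 0.12 and 0.25 ± 0.12, and only those of the second probe were free of overlap.

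SNHG12 carries snoRNAs of both classes. It had 7.02, 7.07 and 7.88 with DMSO and 7.44, 7.29 and 7.39 with TIC10, so that the TIC10 arrays lay between the first 2 DMSO arrays and the third. The difference was 0.05 ± 0.23, and 0.33 ± 0.08 (1.26-fold) without DMSO replicate 3. The matrix pointed the other way, at -0.38 ± 0.14, with all TIC10 columns below all DMSO columns, and so did scaling to one median, at -0.28. No direction can be given for SNHG12 from these tables.

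Among the hosts of box C/D snoRNAs, ZFAS1, which lies beside the start of ZNFX1 and carries SNORD12, SNORD12B and SNORD12C had the largest difference. Its intensities were 2641, 2576 and 5624 with DMSO and 6576, 6344 and 7724 with TIC10. The normalized values were 11.33, 11.49 and 11.83 against 12.87, 12.77 and 12.88, with no overlap between the groups. The difference was 1.29 ± 0.13 (2.45-fold), 1.43 ± 0.09 without DMSO replicate 3 and 0.65 ± 0.13 in the matrix. A second ZFAS1 probe did not pass the filter, at intensities of 33.5 to 49.7, and was not tested in the main fit. With no filter on dim probes it was at -0.05 ± 0.08, and in the matrix at 0.08 with overlapping groups.

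SNHG5, which carries SNORD50A and SNORD50B, had 10.52, 10.89 and 11.19 with DMSO and 12.06, 12.08 and 12.08 with TIC10. The TIC10 arrays agreed to an SD of 0.01, the smallest among the 9 genes, while the DMSO SD was 0.34. The difference was 1.21 ± 0.16 (2.31-fold), and 1.37 ± 0.11 without DMSO replicate 3. Its other probe differed by 1.33 ± 0.26 (1.57 ± 0.18 without DMSO replicate 3), also without overlap, with a TIC10 SD of 0.36. In the matrix the probes gave 0.52 ± 0.11 and 0.43 ± 0.15, the second with overlapping groups.

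SNHG6, which carries SNORD87, had the smallest difference among the genes whose groups did not overlap. Its values were 11.02, 11.34 and 11.54 with DMSO and 11.92, 11.92 and 11.78 with TIC10. The groups did not overlap, and the difference was 0.57 ± 0.14 (1.49-fold) or, without DMSO replicate 3, 0.69 ± 0.11. Its unnormalized intensities overlapped, with 4675 on DMSO replicate 3 against 3025 to 3279 on the TIC10 arrays. Over the arrays left out in turn the difference ran from 0.43 to 0.69, and with cyclic loess it was 0.50. SNHG6 was not among the genes under the threshold with cyclic loess, without DMSO replicate 2 or without any one TIC10 array. The matrix gave 0.09 ± 0.12 with overlapping groups, and scaling to one median 0.21.

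SNHG1, which carries a series of C/D snoRNAs from SNORD22 to SNORD31, had 10.46, 10.67 and 11.21 with DMSO and 10.77, 10.87 and 10.75 with TIC10. The TIC10 arrays were above the first 2 DMSO arrays and below the third. The difference was 0.02 ± 0.19, and 0.24 ± 0.09 without DMSO replicate 3. The matrix gave 0.31 ± 0.13, with all TIC10 columns above all DMSO columns, and scaling to one median turned the sign, to -0.43.

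GAS5 was dim on these arrays. Its single probe read 52.5, 45.4 and 45.7 with DMSO and 45.8, 42.5 and 45.7 with TIC10, at the 40.4th to 59.3rd percentile of each array. The normalized values of 6.18, 6.07 and 6.02 against 6.15, 6.05 and 6.15 overlapped fully, with a difference of 0.03 ± 0.07, -0.00 ± 0.08 without DMSO replicate 3 and 0.01 ± 0.15 in the matrix. At this signal, a change of GAS5 was not detectable with this probe, and the probe does not show that GAS5 was unchanged.

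**Figure D2:**
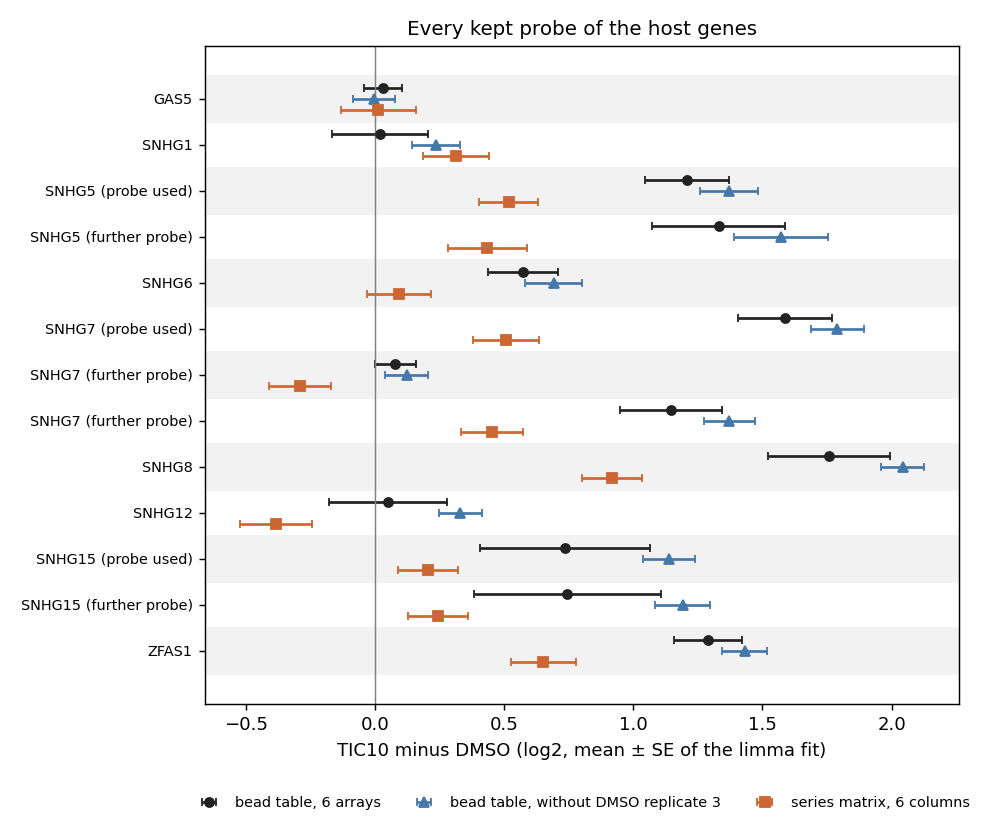
Difference between TIC10 and DMSO (log2, horizontal axis) with its limma SE for each of the 13 kept probes, from all 6 arrays of the bead table (circles), without DMSO replicate 3 (triangles) and from the series matrix (squares). All 13 circles are above 0, the triangles lie to the right of the circles in every probe but that of GAS5, and the squares lie to the left in every probe but that of SNHG1.

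Compared among themselves, the genes varied more between DMSO arrays than between TIC10 arrays, as most genes of the array did. The SD over the DMSO arrays was above that over the TIC10 arrays in 9 of 9 genes, at 0.09 to 0.71 against 0.01 to 0.11, and in 64.4% of all genes. All TIC10 arrays were above DMSO replicates 1 and 2 in 8 of the 9 genes, all but GAS5, and in 26.6% of all genes. Centred on its own mean and averaged over the 9 genes, the level was -0.68, -0.52 and -0.01 on the DMSO arrays and 0.41, 0.41 and 0.39 on the TIC10 arrays. Similar profiles over the 6 arrays were sought among kept probes with 1 symbol outside the list. Only probes with an SD over the arrays at least that of this averaged level were searched. The most similar were those of ASS1, an enzyme of arginine synthesis (r = 0.9988), and POLR3E, a subunit of RNA polymerase III (r = 0.9984). Next came SNORD104, a C/D snoRNA (r = 0.9957), IDUA, a lysosomal enzyme (r = 0.9954), and ABCC3, an efflux transporter (r = 0.9948). These correlations are over 6 arrays that share the treatment split and the bright DMSO replicate 3. They were picked as the highest of the probes searched, so they carry no test.

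The snoRNAs inside the genes were measured by probes of their own. Of 37 snoRNA genes within the spans of the 10 host genes in RefSeq, 31 had a probe and 22 a kept one. The limma fit with Benjamini-Hochberg adjustment over all kept probes called 2 of the 22 higher and 1 lower, at a median of 0.07, beside 8.66% and 9.31% of all kept probes. Over all snoRNA genes on the array, 27 of 181 kept probes were called higher and 4 lower, at a median of 0.09. Without DMSO replicate 3, 6 of the 22 were higher and 1 lower, and over all snoRNA probes 54 and 5, beside 13.5% and 14.0% of all kept probes.

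SNORA24 in SNHG8 was higher by 0.94 ± 0.16 (limma adjusted p = 0.0105), with a host difference of 1.76. SNORD87 in SNHG6 was higher by 0.63 ± 0.13 (limma adjusted p = 0.02), with a host difference of 0.57. They were at 1.13 and 0.77 without DMSO replicate 3. Neither passed in the matrix, where SNORA24 was at 0.21 and SNORD87 at -0.18. SNORD25 in SNHG1 was lower by 0.77 (log2 -0.77 ± 0.16, limma adjusted p = 0.0185), where its host was at 0.02, and it was at -0.64 without DMSO replicate 3 and at -0.07 in the matrix.

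In the other hosts that were higher, the snoRNA probes lay near 0. SNORA17A and SNORA17B in SNHG7 were at -0.04 ± 0.08 and -0.07 ± 0.07, SNORD50B in SNHG5 at 0.06 ± 0.11, and SNORD12, SNORD12B and SNORD12C in ZFAS1 at -0.05 ± 0.12, 0.12 ± 0.06 and 0.14 ± 0.22. None of these 6 passed, also not without DMSO replicate 3 except SNORD12C, at 0.40. In GAS5, whose own probe was dim, 4 snoRNA probes were kept and ran from -0.13 (SNORD74) to 0.55 (SNORD76), with 0 called. In SNHG12 the 3 kept probes ran from -0.50 (SNORA61) to 0.13 (SNORD99), with 0 called. For SNHG16, which had no probe of its own, SNORD1A was at 0.27 ± 0.11 and SNORD1C at 0.15 ± 0.07, neither past the threshold. A difference between a host and its snoRNA was not itself tested, and mature snoRNA and unspliced host RNA cannot be told apart with these probes.

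**Figure D3:**
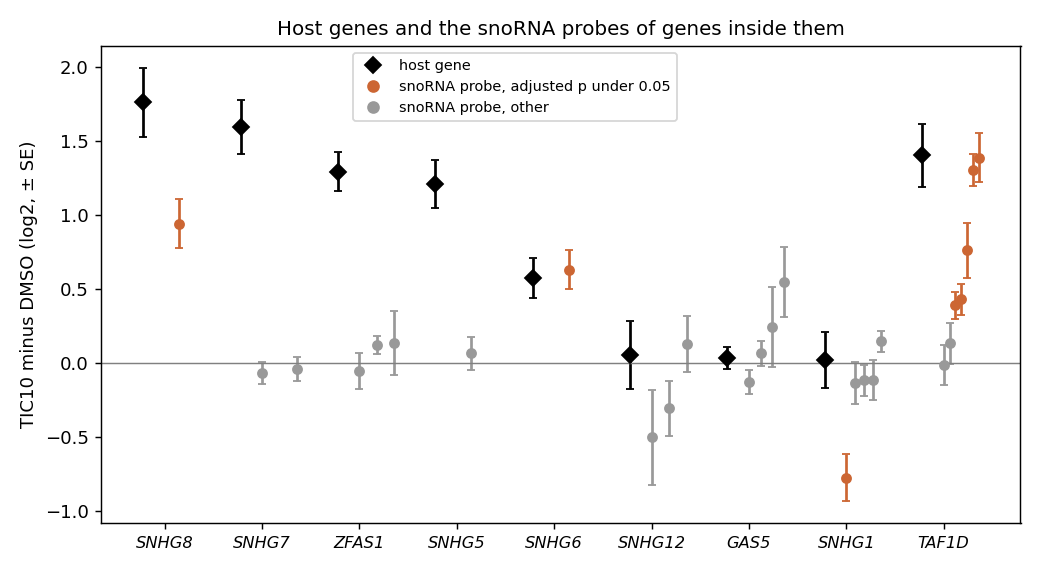
Difference between TIC10 and DMSO (log2, vertical axis, with limma SE) of the host genes other than SNHG15 and SNHG16 (black diamonds). Circles are the kept snoRNA probes inside them, orange where the adjusted p was under 0.05. SNHG15, which had no kept snoRNA probe, and SNHG16, which had no probe of its own, are not shown. SNHG8 and SNHG6 have a snoRNA probe that was called higher, while those of SNHG7, ZFAS1 and SNHG5 lie near 0; TAF1D, a protein-coding host, was added after its values were seen.

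Genes on the other strand were examined where a member's start and strand were in the promoter table. SLC3A2, the heavy chain of the CD98 amino acid transporter, starts 224 bases from SNHG1 and is transcribed away from it. Its brighter probe had 9.71, 10.03 and 10.18 with DMSO and 11.14, 11.16 and 10.97 with TIC10, a rise of 1.11 ± 0.13 (limma adjusted p = 0.00252, against 0.206 under scaling to one median), 1.22 ± 0.11 without DMSO replicate 3, and 1.26 in the matrix (adjusted p = 4.13e-06). SNHG1 itself was at 0.02 in the bead table and 0.31 in the matrix. The second SLC3A2 probe read 37.9 on DMSO replicate 3 where it read 377 to 693 on every other array, and was not called with all arrays (1.97 ± 0.75, limma adjusted p = 0.134). Without that array it was called (1.02 ± 0.10, limma adjusted p = 0.000242), as it was in the matrix (1.58 ± 0.14, adjusted p = 3.38e-06), and over all alternatives the adjusted p ran up to 0.292. TRNAU1AP, which overlaps SNHG12, was at -0.01 ± 0.09 (limma adjusted p = 0.948). ZBTB37, which overlaps GAS5, and DIPK1B, which overlaps SNHG7, had no kept probe.

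Among other noncoding hosts, 8 of 12 listed genes had a kept probe, and 1 was called higher and 0 lower, at a median of -0.09. The one was EPB41L4A-AS1, which carries SNORA13, at 1.69 ± 0.12 (3.22-fold, limma adjusted p = 0.000546), at 1.82 ± 0.08 without DMSO replicate 3 and at 1.03 in the matrix. SNHG17 (0.48), SNHG4 (0.14), DANCR (-0.03), SNHG9 (-0.15), SNHG3 (-0.17), SNHG10 (-0.21) and SNHG11 (-0.29) did not pass, and without DMSO replicate 3 SNHG17 (0.79) and DANCR (0.34) did. The difference between this list and the 9 genes was not tested. For the counts of this and the following lists, the shares over all genes were 9.99% higher and 13.0% lower. Without DMSO replicate 3 they were 15.9% and 18.7%.

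Of 35 protein-coding hosts, 8 were called higher and 5 lower, at a median of 0.10, beside 9.99% and 13.0% of all genes. The largest rises were those of TAF1D, a subunit of the RNA polymerase I factor SL1 (1.40 ± 0.21), RABGGTB, a Rab prenylation enzyme (0.89 ± 0.08), the ribosomal protein gene RPL13A (0.70 ± 0.12) and the elongation factor EEF2 (0.52 ± 0.11). NAP1L4, a histone chaperone (-1.08 ± 0.14), HSPA8, a constitutive chaperone (-0.81 ± 0.10), EIF4A1, an initiation helicase (-0.49 ± 0.08), and EIF4G2, an initiation factor (-0.38 ± 0.09), fell most. Their limma adjusted p ran from 0.000915 to 0.0356. In the same order, the 4 that rose were at 1.38, 0.92, 0.82 and 0.51 and the 4 that fell at -0.99, -0.70, -0.43 and -0.35 without DMSO replicate 3. Of these 8, only NAP1L4 passed in the matrix too. Without DMSO replicate 3 the higher calls of this list numbered 15, and without DMSO replicate 1 or TIC10 replicate 1 or 2 they numbered 5.

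The core proteins of snoRNPs, which bind the mature snoRNAs, numbered 8, of which 0 were called higher and 1 lower, at a median of -0.24. NOP56 of the C/D particle fell by 0.38 on the log2 scale (SE 0.07, limma adjusted p = 0.012). FBL, the C/D methyltransferase (-0.03), NOP58 (-0.38) and SNU13 (-0.61) did not pass, nor did DKC1, the H/ACA pseudouridine synthase (-0.05), GAR1 (-0.22), NHP2 (-0.26) and NOP10 (-0.19). Without DMSO replicate 3, 1 core gene was higher (DKC1) and 2 lower (NOP56 and SNU13). A further SNU13 probe was called higher (0.46), so its probes disagreed. Of 13 assembly factors, 1 rose, ZNHIT6 (0.43 ± 0.09), and 4 fell: RUVBL1, a helicase of the R2TP complex (-0.82 ± 0.19), WRAP53, which takes RNAs to Cajal bodies (-0.79 ± 0.20), PIH1D1 (-0.56 ± 0.13) and SHQ1, a chaperone of DKC1 (-0.37 ± 0.07). No assembly factor passed as lower without TIC10 replicate 1 or 3, 1 did without DMSO replicate 2, and none passed as higher when DMSO replicate 1, DMSO replicate 2, TIC10 replicate 2 or TIC10 replicate 3 was left out. With DMSO replicate 3 left out, 4 passed as higher and 5 as lower. NOP56 and DKC1 are themselves snoRNA hosts and stand in both lists.

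NMD factors, which act on the spliced RNA of many hosts, numbered 16, of which 3 were called higher and 2 lower, at a median of 0.02. SMG9 (0.53 ± 0.11), NBAS (0.42 ± 0.08) and DHX34 (0.38 ± 0.09) rose, and EIF4A3, the exon junction helicase (-0.87 ± 0.07, limma adjusted p = 0.000817), and SMG8 (-0.41 ± 0.07) fell. None of the 5 passed in the matrix. A further UPF2 probe, dim at intensities of 33.0 to 61.6, was called lower (-0.39 ± 0.07, and -0.43 without DMSO replicate 3). That probe passed in the matrix too, at -0.44, while the brightest UPF2 probe (0.16) and the remaining ones were not called, so the UPF2 probes disagreed. Without DMSO replicate 3, 5 NMD factors were higher and 4 lower, and without DMSO replicate 1 or TIC10 replicate 1 or 2 only 1 was higher. The values of the NMD, snoRNP and host lists are given beside those of the 9 genes, and no relation between them was tested. The median over all 14534 genes was -0.01, and 9.99% of them passed as higher and 13.0% as lower.

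**Figure D4:**
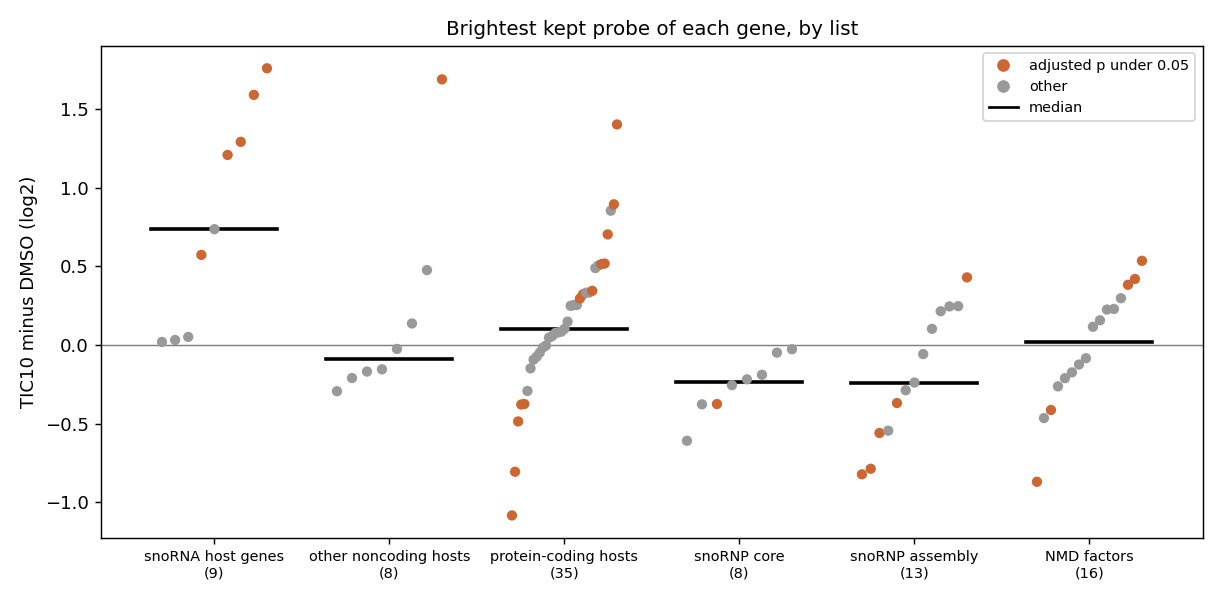
Difference between TIC10 and DMSO (log2, vertical axis) of the brightest kept probe of each gene, by list, with the number of genes in brackets, orange where the adjusted p was under 0.05 and a line at the list's median. The snoRNA host genes, which were chosen for their difference, have a median of 0.74, and the other lists have medians of -0.24 to 0.10.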

How the data were processed

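The members and the lists beside them were chosen with earlier results of these data known. The deposited bead table held intensity values that the authors' file describes as not normalized, without detection p-values. The authors' series matrix held processed, probe-centred log values, read here as log2. The sources used here do not state its base, its scaling or what it was centred on, and its column medians ran from -0.0956 to 0.0687. The bead columns called Control 1, 2 and 3 were matched to the DMSO replicates through their numbers alone. Per the labels, biotinylated cRNA of total RNA was hybridized.

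Background correction (normexp, offset 50), quantile normalization and log2 were applied with limma 3.58.1 under R 4.3.3. The limma fit (lmFit and eBayes, two-sided, Benjamini-Hochberg) covered 29440 kept probes. Steps were tested on simulated data. The brightest kept probe stood for its gene, and the annotation gave 1 symbol to 30112 of 47319 probes. Arrays have no read depth, and their number, 3 per group, limits the precision. An exact permutation test of 3 against 3 could not go below p = 0.1. Every member was named with all probes. In each other list all genes were named where up to 8 were measured, otherwise up to 4 called genes with the largest change in each direction. RefSeq names and nesting came from GRCh38.p14. Alternatives covered background correction, normalization, the matrix, filters, probe summary, eBayes settings, replicate block and leaving out each array.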

Additional observations from a re-analysis of the deposited data

How the results depend on the processing

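SNHG5, SNHG6, SNHG7, SNHG8, SNHG15 and ZFAS1 kept their direction under each of the 16 alternatives. SNHG1, SNHG12 and GAS5, whose differences were near 0, did not. SNHG1 and SNHG12 changed sign with arrays scaled to one median, SNHG1 also with cyclic loess and SNHG12 in the matrix, and each of the 3 changed sign when some array was left out. The number of host genes called as higher, 5 as reported, was 0 with arrays scaled to one median and 4 to 7 when each array was left out in turn, with 7 without DMSO replicate 3. Correlations of same-numbered deviations were -0.08, 0.13 and 0.00 and gave no sign of pairing by replicate number. With 3 arrays per group, they cannot exclude it. With a replicate block 4 host genes passed, SNHG6 being lost, the higher protein-coding hosts numbered 5, the lower snoRNP core genes 2 and the lower assembly factors 1.

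Over all probes, 2549 were called higher and 2741 lower. The higher calls numbered 513 with arrays scaled to one median, 704 in the matrix, 1547 with a gene's probes averaged and 1513 with one probe per gene, and the lower calls 629 in the matrix. The counts with one row per gene are smaller because fewer rows were tested. Leaving out each array gave 1454 to 3974 higher and 1615 to 4108 lower calls. With arrays on one median, the other noncoding hosts had 0 higher and 1 lower call, the protein-coding hosts 1 and 2, the assembly factors 0 and 1, and there were 0 lower snoRNP core genes and 0 higher NMD factors. The matrix gave 2 higher and 2 lower protein-coding hosts, 1 lower assembly factor and 0 higher and 0 lower NMD factors. The lower snoRNP core genes numbered 2 with a stricter filter and 0 with a gene's probes averaged. Robust eBayes with a trend on intensity gave 0 higher assembly factors and 1 lower NMD factor.
Leaving out each array gave 1 to 3 higher and 0 lower other noncoding hosts, 5 to 15 higher and 4 to 5 lower protein-coding hosts, 0 to 1 higher and 1 to 2 lower snoRNP core genes, 0 to 4 higher and 0 to 5 lower assembly factors and 1 to 5 higher and 2 to 4 lower NMD factors.
The cause of these shifts was not tested. With 3 arrays per group and one of them apart, whether SNHG12 and SNHG15 came under the threshold depended on DMSO replicate 3. Whether SNHG6 did depended on DMSO replicate 2, each TIC10 array and the replicate block. The SNHG6 call also depended on cyclic loess (0.50, not under it), scaling to one median and the choice of table. SNHG5, SNHG7, SNHG8 and ZFAS1 did not come under it with arrays scaled to one median (limma adjusted p of 0.0852 to 0.187). Dim probes such as that of GAS5 bound no change.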

Other observations

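TAF1D and its snoRNAs were picked out after their values were seen. TAF1D differed by 1.40 ± 0.21 in the bead table (limma adjusted p = 0.00616) and by 1.38 ± 0.22 without DMSO replicate 3. TAF1D did not pass in the matrix. Of its 8 snoRNA genes, 7 had a kept probe. Of these, 5 were called higher: SNORA8 (1.38 ± 0.17), SNORA25 (1.30 ± 0.11), SNORA32 (0.76 ± 0.19), SNORA18 (0.43 ± 0.11) and SNORD6 (0.39 ± 0.09). These 5 were at 1.52, 1.37, 0.89, 0.48 and 0.46 without DMSO replicate 3. SNORA1 (0.13) and SNORA40 (-0.01) did not pass. In the matrix, 0 of these 7 passed, with values of -0.12 (SNORA40) to 0.39 (SNORA25). Over the 35 protein-coding hosts, TAF1D held 5 of the 13 snoRNA probes called higher among 74 kept.

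SNHG32, a snoRNA host gene outside the lists and also chosen after its values were seen, had 2 kept probes, which were higher by 1.50 ± 0.09 and 1.23 ± 0.19 (limma adjusted p = 0.000309 and 0.00665). Leaving out DMSO replicate 3 put them at 1.53 and 1.46. Both passed in the matrix as well, at 0.90 and 0.86, and 1 of them also passed with arrays scaled to one median, at 1.20.

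CD68, a lysosomal protein listed among the markers of other cell types, was the called gene of that list. Its brightest probe was at 1.80 ± 0.26 (limma adjusted p = 0.00527), 1.48 ± 0.08 without DMSO replicate 3 and 0.64 in the matrix. Its other kept probes differed less, by 0.62 ± 0.14 (limma adjusted p = 0.0266) and 0.58 ± 0.19 (limma adjusted p = 0.0898). Without DMSO replicate 3 they were at 0.49 and 0.38. In the matrix they were at 0.02 and 0.12 and did not pass. The list's other kept genes, COL1A1, COL1A2, COL3A1 and PTPRC, were not called. KRT19 was the called gene of the colon epithelium list in the main fit, at 0.39 ± 0.09 (limma adjusted p = 0.0303). It was at 0.38 ± 0.10 without DMSO replicate 3. It did not pass in the matrix (0.24, limma adjusted p = 0.319) or with arrays scaled to one median (0.24, limma adjusted p = 0.485). In the matrix the called gene was CLDN7 (0.95, limma adjusted p = 0.000135), at 0.44 in the bead table (limma adjusted p = 0.286). Without DMSO replicate 3, 2 genes of that list were higher and 1 lower.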
